A study of Mus musculus with 6 samples.

Results

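The DNA replication and S phase genes described here are 51 genes whose products prepare, start, carry out or accompany DNA synthesis, out of 35019 gene names on the array. They were chosen by name, and 68 of 55681 probes belonged to them. For 50 of the 51 genes, at least 1 probe was well above background on all 3 arrays of at least 1 sample group, as it was for 29134 of the 35019 names. Ccne2, a cyclin E gene, was not well above background in any sample and has no further value. The counts that follow are over the 50 measured genes. Mcm10 and Gins1 passed this filter only through MPP samples, so their difference between MPPs and HSCs was partly built into the filter.

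RNA was compared between multipotent progenitors (MPPs) and hematopoietic stem cells (HSCs), and between Bmi1 KO and wild-type (WT) mice, on 6 Agilent arrays with 2 colours. The groups were KO MPPs, KO HSCs, WT MPPs and WT HSCs with 3 samples each, which the labels call biological replicates. All came from C57BL6 mice of 2 to 3 months, were sorted by FACS and had no treatment in the labels. How the KO allele was made, the sort gates and the number of mice behind a sample were not given in the sources used here. KO stands throughout for samples labelled Bmi1 KO. Every array held a KO sample in red (Cy5) beside a WT sample of the same population in green (Cy3), so dye and genotype cannot be told apart in KO over WT. MPPs and HSCs lay on different arrays and were compared within a dye.

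HSCs keep blood formation going for life and divide rarely in adult mice, while MPPs, their descendants, cycle more often. Before S phase, Cdc6 and Cdt1 load the Mcm2 to Mcm7 helicase onto origins, and cyclin E kinase, Mcm10 and the GINS complex help to start it. Primase and DNA polymerase alpha then lay primers, the RFC complex loads the PCNA clamp, and DNA polymerases delta and epsilon copy the strands while nucleotide enzymes, ligase and chromatin assembly factors keep pace. Many of these genes are classic targets of E2F factors, which are held in check by the retinoblastoma proteins. Bmi1 belongs to Polycomb repressive complex 1 and represses the Ink4a-Arf locus, which encodes inhibitors acting on the retinoblastoma and p53 pathways.

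The 6 members whose MPP and HSC levels differed with the smallest p, 3 in each genotype, are shown by their promoters. Each line runs 5′ to 3′ from 120 bases before to 30 bases after the start listed by RefSeq, on build GRCm38.p6. Capitals mark E2F words (TTCCCGC or TTGGCGC or TTCGCGC or TTGCCGC) and the NF-Y word CCAAT on either strand.
Cdt1: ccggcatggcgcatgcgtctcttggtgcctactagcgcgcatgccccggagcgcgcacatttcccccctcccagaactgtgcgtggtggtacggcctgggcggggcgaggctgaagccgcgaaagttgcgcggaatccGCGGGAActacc
Pole2: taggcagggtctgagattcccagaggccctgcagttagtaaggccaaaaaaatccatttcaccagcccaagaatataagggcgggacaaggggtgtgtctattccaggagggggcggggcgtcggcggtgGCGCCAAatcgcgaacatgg
Hells: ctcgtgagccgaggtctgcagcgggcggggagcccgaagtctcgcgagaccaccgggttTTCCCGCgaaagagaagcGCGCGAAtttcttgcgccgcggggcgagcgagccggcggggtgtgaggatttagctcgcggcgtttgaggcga
Pold1: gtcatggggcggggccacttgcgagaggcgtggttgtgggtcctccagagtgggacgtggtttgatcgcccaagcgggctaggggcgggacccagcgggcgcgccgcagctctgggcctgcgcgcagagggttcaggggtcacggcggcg
Pold2: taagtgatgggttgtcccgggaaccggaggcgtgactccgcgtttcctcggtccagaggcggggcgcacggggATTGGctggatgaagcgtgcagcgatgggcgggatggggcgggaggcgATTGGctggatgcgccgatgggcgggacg
Rfc1: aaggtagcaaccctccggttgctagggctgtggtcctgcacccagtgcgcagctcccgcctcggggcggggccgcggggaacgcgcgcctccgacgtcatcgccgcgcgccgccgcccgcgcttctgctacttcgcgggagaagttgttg

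The windows are chr8:122567895-122568044 on the plus strand for Cdt1, chr12:69228161-69228310 on the minus strand for Pole2 and chr19:38930870-38931019 on the plus strand for Hells. Those of Pold1, Pold2 and Rfc1 are chr7:44548786-44548935, chr11:5878227-5878376 and chr5:65335610-65335759, all on the minus strand. RefSeq lists 2 starts for Pold2, of which the first is shown. Hells had E2F words at -61 to -55 and at -43 to -37 from its start. Cdt1 had one at 19 to 25 and Pole2 one at 11 to 17, downstream of the start. Pold2 had CCAAT on the opposite strand at -47 to -43 and at 2 to 6 and no E2F word. Beyond the printed stretch, Cdt1 had a further E2F word at 34 to 40 and Pold2 a further CCAAT at 42 to 46. The E2F words of Pold1 and Rfc1 and both CCAAT words of Rfc1 also start or end outside it.

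Promoters of 300 bases were listed for 41 members. An E2F word occurred in 27 of these 41 (65.9%), against 10.9% of 27025 genes with a listed promoter. CCAAT occurred in 23 of 41 (56.1%), against 41.1% of all genes. The cell cycle homology word TTTGAA occurred in 5 of 41 (12.2%), against 20.2%. Members' promoters had a median GC content of 61.3%, against 52.7% over all 32851 promoters, and CG-rich words are more frequent in such sequence. The 27 members with an E2F word had a median difference, MPPs minus HSCs, of 1.07 in KO and 1.33 in WT on the log2 scale. The 14 without one had medians of 0.94 in KO and 0.66 in WT. These shares and medians are descriptions, and the presence of a word does not show binding.

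The median red signal of the KO samples was 462 to 501 on the MPP arrays and 379 to 581 on the HSC arrays. The median green signal of the WT samples was 124 to 206 over the MPP and HSC arrays. No member spot was saturated or marked as faulty, and the precision of every value is limited by 3 arrays per population. The brighter Bmi1 probe had log2 KO over WT of 0.23, -0.69 and 0.48 on the MPP arrays and -0.39, -2.42 and -0.50 on the HSC arrays. The other Bmi1 probe had 0.93, 0.70 and -0.05 on the MPP arrays and 0.11, -1.66 and 1.36 on the HSC arrays, so it was above 0 on 4 of 6 arrays. Whether either lies in the deleted part is not given, and these values do not check the KO label. All arrays shared 1 slide, with the 3 HSC arrays and MPP 1 in row 1 and MPP 2 and MPP 3 in row 2. Of 8 MPP markers, 3 passed the adjusted test as higher in MPPs in each genotype, and all 8 had differences above 0. Of 12 HSC markers, 8 had differences below 0 in KO and 12 in WT, and 0 passed.

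Replication genes were, as a group, at higher measured levels in MPPs than in HSCs in both genotypes. The median level of the 50 members, as log2 signal quantile-normalized within the dye, was 12.58, 12.26 and 12.89 in KO MPPs 1 to 3, against 11.07, 11.26 and 11.54 in KO HSCs 1 to 3. In WT it was 10.91, 10.87 and 11.45 in MPPs, against 10.39, 9.27 and 8.72 in HSCs. Every MPP sample thus lay above every HSC sample of the same genotype, and WT HSC 1 lay nearest to the MPPs. The median over all features was 10.05 to 10.08 in KO samples and 8.65 to 8.70 in WT samples. Quantile normalization within the dye makes it nearly equal on every array, so it is a reference level and not a control. Sorted cells were measured in bulk, so more cells in cycle and more transcript per cell cannot be told apart.

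**Figure D1:**
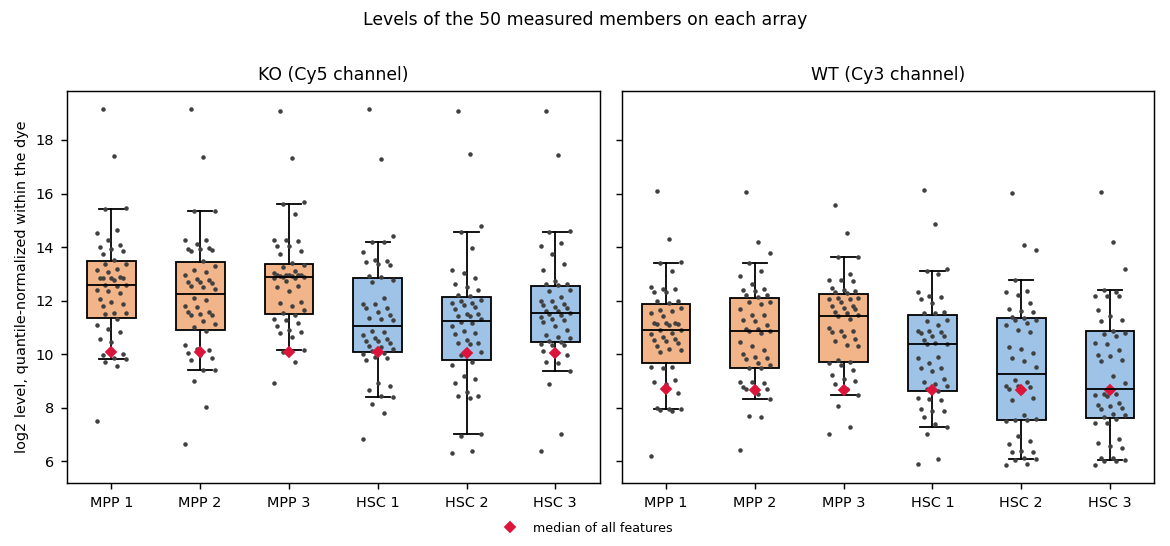
Log2 levels of the 50 measured members (points) on each array, for KO samples in the Cy5 channel (left) and WT samples in the Cy3 channel (right), MPP arrays before HSC arrays. Boxes span the quartiles with the median as a line, whiskers run from the 5th to the 95th percentile, and diamonds give the median of all features. The members' medians sit at 12.26 to 12.89 in KO MPPs and 11.07 to 11.54 in KO HSCs, and at 10.87 to 11.45 in WT MPPs and 8.72 to 10.39 in WT HSCs.

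The difference in log2 level, MPPs minus HSCs, was above 0 for 47 of 50 members in KO and for 44 of 50 in WT, where 43% and 43.7% of all 29134 features were. Its median over the members was 1.07 in KO and 1.18 in WT, against -0.09 over all features in each. Both groups of 3 samples were fully separated, MPPs above, for 26 members in KO (8.62% of all features) and for 19 in WT (8.25%). The opposite separation occurred for 0 members in either genotype (11.1% of all features in KO and 13.8% in WT). At an unadjusted p under 0.05 in limma, 23 members were higher in KO MPPs (6.52% of all features) and 21 in WT MPPs (6.77%). Without MPP 3 these counts were 14 in KO and 10 in WT, and without MPP 1 the WT count was 13. The share of all features was not counted in those fits. At the same p, 0 members were lower in MPPs in either genotype, where 5.53% of all features were in KO and 8.4% in WT. After Benjamini-Hochberg adjustment over all features, 0 of 50 members passed 0.05 in either genotype, while 153 features (0.525%) passed in KO and 122 (0.419%) in WT. By direction, 0.419% of all features passed as higher and 0.106% as lower in KO MPPs, and 0.36% as higher and 0.0584% as lower in WT MPPs. The smallest adjusted p among members was 0.0763 in KO and 0.0637 in WT.

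Of 13 members with several measured probes, the probes disagreed in sign for 6 in KO and 7 in WT. The same genes could be read in both genotypes, whose samples are different but share arrays. MPP and HSC samples were separated in both for 14 members, where 2.69% of all features were. These were the licensing genes Cdc6, Cdt1, Mcm2 and Mcm3, the helicase activator Mcm10, the polymerase subunits Pola2 and Pole2, and the flap endonuclease Fen1. The others were the dUTPase gene Dut, the fork genes Timeless and Brip1, and the chromatin genes Uhrf1, Dnmt1 and Hells. Mcm10 passed the filter only through MPP samples, so its separation was partly built in. At an unadjusted p under 0.05 in both, 10 members remained, all of them among those 14 (2.25% of all features). Across the 50 members the KO and WT differences correlated with r = 0.46 (Spearman 0.48), where across all features r was 0.59 (0.50), and genes of shared arrays are not independent points.

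**Figure D2:**
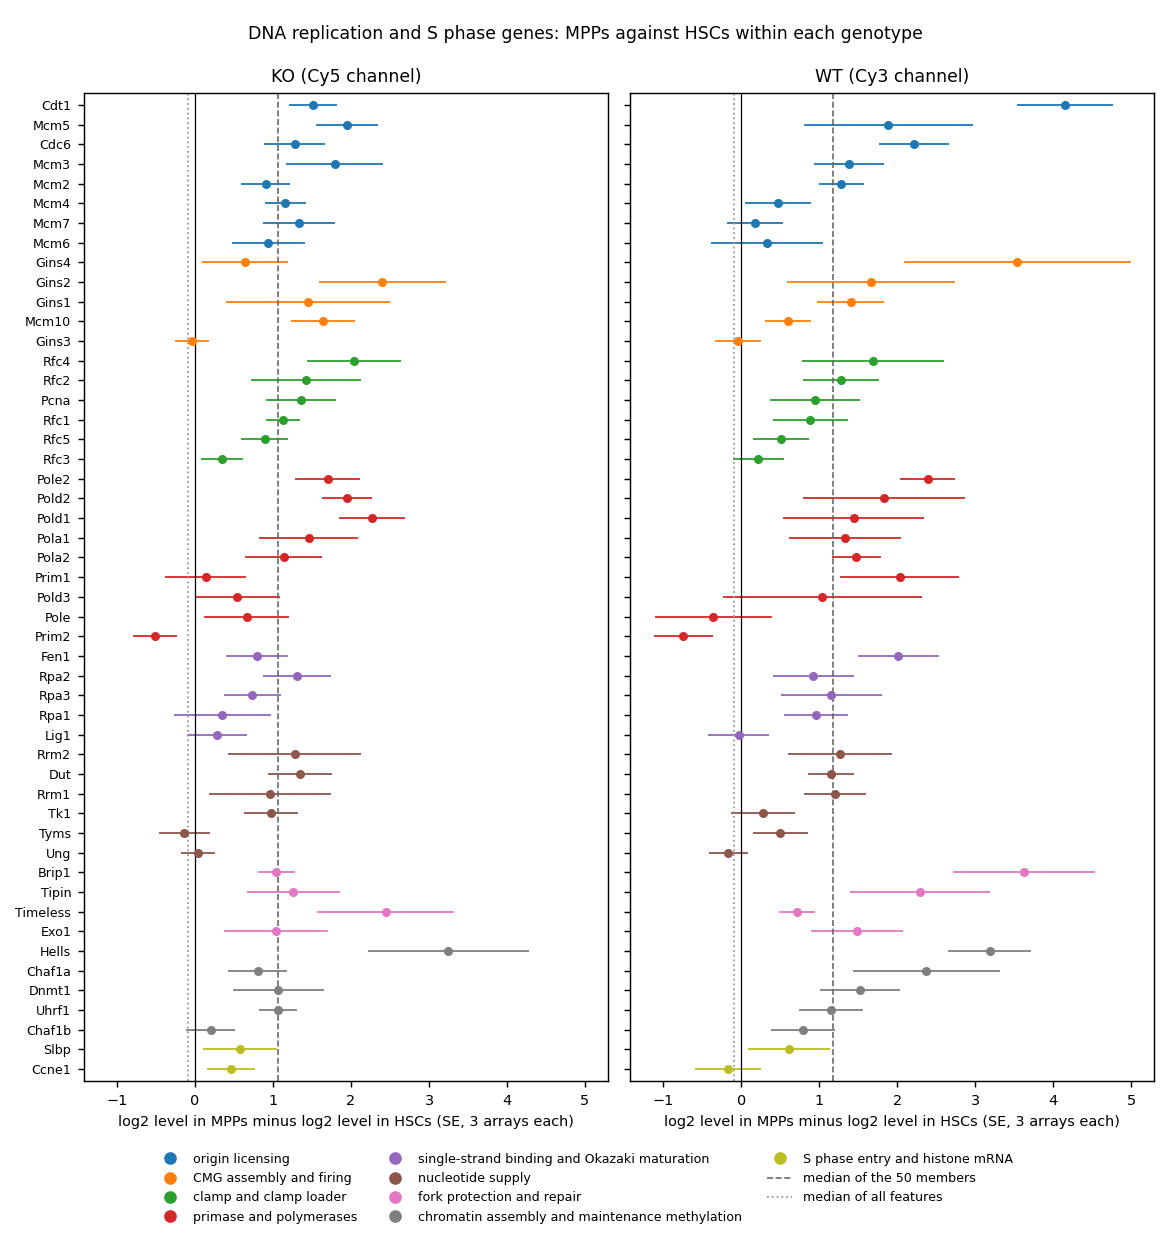
Log2 level in MPPs minus log2 level in HSCs for each of the 50 members, grouped and coloured by role, in KO (left) and WT (right). Points are estimates from 3 MPP and 3 HSC arrays and bars are their standard errors. The dashed lines mark the members' medians of 1.07 in KO and 1.18 in WT and the dotted lines the medians of all features, -0.09 in each.

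Slide row, other cell types and the dim members were set beside this result. Within row 1, where MPP 1 stood against the 3 HSC arrays, 47 of 50 members in KO and 43 of 50 in WT were higher in MPPs, with medians of 1.1 and 1.09. With slide row as a term in the fit, 9 members in KO and 8 in WT were higher at an unadjusted p under 0.05, against 23 and 21 without it. No share of all features is given for row 1, for this fit or for the next counts. Whether members exceed all features there cannot be read from them. Of the probes well above background in every sample of a genotype, 45 of 48 in KO and 36 of 42 in WT were higher in MPPs. The other 8 members, Cdc6, Cdt1, Mcm10, Gins1, Gins4, Prim1, Rrm2 and Brip1, were not well above background in at least 1 WT HSC, and Mcm10 and Gins1 in KO samples too. The size of a difference against such a sample depends on the background level and is not exact. Some samples counted as well above background also had signals below the offset of 50 used in background correction. Among them was WT HSC 2 for Cdt1 (18.2), Pold2 (19.5) and Tipin (18.9). B lineage markers were above 0 for 11 of 11 in KO and 10 of 11 in WT, none of them below background throughout. Their summed linear level was 28276 to 172790 in KO MPPs and 4874 to 16804 in KO HSCs, and 3804 to 5727 in WT MPPs and 2104 to 4032 in WT HSCs. Basophil, mast cell and eosinophil markers summed to 22287 to 105940 in KO MPPs and 1242 to 153110 in KO HSCs. In WT they summed to 17721 to 70911 in MPPs and 675 to 10685 in HSCs. Neutrophil and monocyte markers summed to 85091 to 151650 in KO MPPs and 8231 to 80809 in KO HSCs, and to 29138 to 64074 in WT MPPs and 1862 to 34389 in WT HSCs. Their part in the levels of the replication genes was not tested.

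Origin licensing genes were higher in MPPs for 8 of 8 members in both genotypes, with a median difference of 1.31 in KO and 1.33 in WT. Cdt1, which brings the helicase to origins, had log2 levels of 12.58, 12.65 and 12.96 in KO MPPs 1 to 3, against 10.73, 11.32 and 11.62 in KO HSCs 1 to 3. In WT its levels were 10.92, 10.88 and 11.47 in MPPs, against 8.33, 6.36 and 6.13 in HSCs, of which HSC 3 was not well above background. The MPP samples lay above all HSC samples in both genotypes, and WT HSC 1 was the highest of its group. The difference was 1.51 (SE 0.31, adjusted p = 0.131) in KO and 4.15 (SE 0.62, adjusted p = 0.0677) in WT. Cdc6, its loading partner, differed by 1.28 (SE 0.39) in KO and 2.22 (SE 0.45) in WT, where HSC 2 and HSC 3 were not well above background. Its other probe had -0.18 in KO and -0.06 in WT. Among the helicase subunits, Mcm5 had the largest differences, 1.95 (SE 0.39) in KO and 1.89 (SE 1.08) in WT. Its WT levels of 11.12, 10.01 and 11.74 in MPPs and 9.86, 6.66 and 10.69 in HSCs overlapped. The lowest of these, WT HSC 2, had a signal of 34.8, below the offset used in background correction. The size of the WT difference of Mcm5 is therefore not exact. Mcm2 and Mcm3 had 0.90 and 1.79 in KO and 1.28 and 1.38 in WT. Mcm4, Mcm6 and Mcm7 differed by 0.94 to 1.33 in KO and by 0.18 to 0.47 in WT, where the samples of both populations overlapped for all 3.

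The genes that complete and fire the helicase were less uniform. Mcm10 had levels of 7.52, 8.02 and 8.94 in KO MPPs, against 6.85, 6.33 and 6.38 in KO HSCs, a difference of 1.64 (SE 0.41, adjusted p = 0.206), with only KO HSC 1 of the KO HSCs well above background. In WT it read 6.21, 6.42 and 7.02 in MPPs and was not well above background in any WT HSC (adjusted p = 0.381), so no fold is given. Gins2 differed by 2.40 (SE 0.81) in KO and 1.66 (SE 1.08) in WT, and Gins1 by 1.45 (SE 1.05) and 1.40 (SE 0.43). Gins4 differed by 0.64 (SE 0.55) in KO and 3.54 (SE 1.45) in WT, where WT HSC 1 read 11.26 and the other WT HSCs 5.91 and 6.02, both not well above background. For Gins1, WT HSC 2, WT HSC 3, KO HSC 2 and KO MPP 2 were likewise not well above background. Gins3, the remaining GINS subunit, had a difference of -0.04 in both KO (SE 0.22) and WT (SE 0.30).

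All 6 genes of the sliding clamp and its loader were higher in MPPs in both genotypes, with medians of 1.24 in KO and 0.92 in WT. Rfc1, the large loader subunit, had levels of 13.76, 13.90 and 13.76 in KO MPPs, against 12.79, 12.62 and 12.63 in KO HSCs. These groups were tight and did not overlap, and the difference was 1.13 (SE 0.22, adjusted p = 0.120), or 2.18-fold. In WT, Rfc1 read 11.74, 12.21 and 12.41 in MPPs, against 12.18, 11.10 and 10.43 in HSCs, with WT HSC 1 inside the MPP range (difference 0.89, SE 0.48). Pcna, the clamp itself, differed by 1.36 (SE 0.44) in KO and 0.95 (SE 0.57) in WT. Rfc4 and Rfc2 had 2.03 and 1.43 in KO and 1.69 and 1.28 in WT, while Rfc3 had 0.35 and 0.22. Rfc5 had 0.90 in KO and 0.51 in WT, and its other probe had -0.54 and -0.91.

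Polymerase subunits gave the smallest p-values of the set. For Pole2, the second subunit of polymerase epsilon, the levels were 10.93, 10.18 and 11.34 in KO MPPs, against 8.68, 8.95 and 9.72 in KO HSCs. In WT they were 10.09, 9.47 and 10.57 in MPPs, against 7.95, 7.57 and 7.45 in HSCs. The populations were separated in both, and the difference was 1.70 (SE 0.42, adjusted p = 0.200) in KO and 2.39 (SE 0.35, adjusted p = 0.0637), or 5.24-fold, in WT. Pold2, an accessory subunit of polymerase delta, read 12.85, 12.42 and 12.96 in KO MPPs, against 11.28, 10.76 and 10.33 in KO HSCs, a difference of 1.95 (SE 0.33, adjusted p = 0.0763). In WT its MPPs read 10.49, 10.15 and 10.85, against 6.38 and 8.92 in WT HSCs 2 and 3, while WT HSC 1 lay between the lowest and the highest MPP (difference 1.83, SE 1.03). Pold1, the catalytic subunit, read 13.14, 11.77 and 13.05 in KO MPPs, against 10.62, 10.08 and 10.44 in KO HSCs (difference 2.27, SE 0.42, adjusted p = 0.106). Its WT levels of 10.56, 11.71 and 12.75 in MPPs and 10.88, 11.36 and 8.44 in HSCs overlapped.

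The array read these 3 genes through probes of 60 bases, shown because a single probe carries each value. Their positions on mm9, the build of the files, are chr12:70307465-70308864 for Pole2, chr11:5773086-5773145 for Pold2 and chr7:51788221-51788589 for Pold1. The Pole2 and Pold1 probes cover 1400 and 369 bases of the genome, so they join pieces that are separate there.
Pole2 probe: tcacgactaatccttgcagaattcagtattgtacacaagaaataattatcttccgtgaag
Pold2 probe: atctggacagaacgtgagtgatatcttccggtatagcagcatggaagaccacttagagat
Pold1 probe: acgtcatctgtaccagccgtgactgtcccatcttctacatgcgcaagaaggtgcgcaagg

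The other polymerase and primase genes were mixed. Pola1, the catalytic subunit of polymerase alpha, differed by 1.46 (SE 0.64) in KO and 1.33 (SE 0.72) in WT, and its partner Pola2 by 1.13 (SE 0.49) and 1.48 (SE 0.31). Prim1, the catalytic primase subunit, had 0.14 (SE 0.52) in KO and 2.03 (SE 0.76) in WT. Pold3 had 0.54 and 1.04. Pole, the catalytic subunit of polymerase epsilon, had 0.66 (SE 0.54) in KO and -0.36 (SE 0.75) in WT, and its probes disagreed in sign in both. Prim2 had -0.51 (SE 0.29) in KO and -0.74 (SE 0.38) in WT by its brighter probe, which was designed on a RIKEN clone. The other Prim2 probe, designed on the RefSeq transcript, had 1.87 (SE 0.59) in KO and 2.28 (SE 0.93) in WT.

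**Figure D3:**
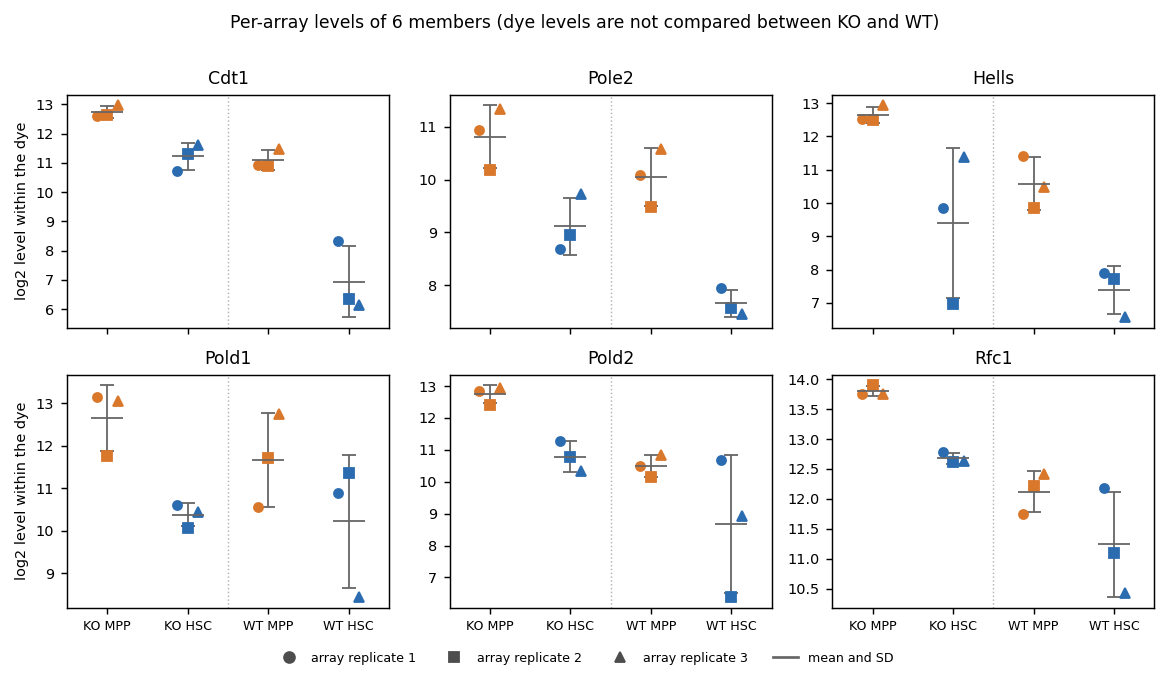
Log2 levels of Cdt1, Pole2, Hells, Pold1, Pold2 and Rfc1 in each sample, with MPPs left of HSCs within KO and within WT, and each group's mean and SD over 3 samples. Marker shapes give the replicate number. In WT the HSC 1 sample (circle) is the highest HSC for 5 of the 6 genes, and for Pold1 HSC 2 is.

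Single-strand binding and lagging-strand genes followed with medians of 0.73 in KO and 0.96 in WT. Fen1, which trims Okazaki flaps, differed by 0.79 (SE 0.40) in KO and 2.02 (SE 0.52) in WT. The subunits of replication protein A had 0.35 to 1.31 in KO and 0.93 to 1.16 in WT. Lig1, the ligase that joins Okazaki fragments, had 0.28 (SE 0.38) in KO and -0.03 (SE 0.39) in WT.

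Nucleotide supply genes were split between enzymes. Dut, which keeps dUTP out of DNA, had levels of 12.58, 12.10 and 12.92 in KO MPPs, against 11.57, 10.43 and 11.56 in KO HSCs, and 11.18, 11.46 and 10.86 in WT MPPs, against 10.42, 9.87 and 9.77 in WT HSCs. All MPPs lay above all HSCs in both genotypes, by 1.35 (SE 0.41) in KO and 1.15 (SE 0.30) in WT. The ribonucleotide reductase genes Rrm1 and Rrm2 had 0.96 and 1.28 in KO and 1.20 and 1.27 in WT. Thymidine kinase Tk1 had 0.97 in KO and 0.28 in WT by its brightest probe, 0.38 and 0.51 by another and -0.11 and -1.06 by the remaining one. Thymidylate synthase Tyms had -0.14 (SE 0.33) in KO and 0.50 (SE 0.35) in WT, and the uracil glycosylase Ung had 0.04 (SE 0.21) and -0.17 (SE 0.25). Ung had the highest levels of the members, 19.07 to 19.17 in KO. Quantile normalization assigns levels by rank, and KO HSC 1 and KO MPP 1 had the same value of 19.14, so a difference in its amount could be missed.

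Fork protection and repair genes were higher in MPPs for 4 of 4 in both genotypes. Brip1, a helicase that works with BRCA1, read 13.06, 12.71 and 12.74 in KO MPPs, against 11.74, 11.93 and 11.71 in KO HSCs, and 11.64, 12.44 and 11.42 in WT MPPs, against 9.69, 8.80 and 6.14 in WT HSCs. The groups were separated in both, by 1.04 (SE 0.24, adjusted p = 0.165) in KO and 3.62 (SE 0.91, adjusted p = 0.225) in WT, where HSC 3 was not well above background. Timeless and Tipin, partners in the fork protection complex, had 2.45 and 1.26 in KO and 0.71 and 2.29 in WT. Exo1, a repair exonuclease, had 1.04 and 1.48.

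Chromatin genes that act behind the fork were higher in MPPs for 5 of 5 in both genotypes. Hells, a chromatin remodeller needed for DNA methylation, read 12.54, 12.50 and 12.93 in KO MPPs, against 9.85, 6.97 and 11.40 in KO HSCs. In WT it read 11.42, 9.85 and 10.48 in MPPs, against 7.89, 7.72 and 6.57 in HSCs. The populations were separated in both. The difference was 3.25 (SE 1.04, adjusted p = 0.311) in KO, where the HSCs were widely spread. In WT it was 3.19 (SE 0.53, adjusted p = 0.104), or 9.11-fold. KO HSC 2 and WT HSC 3 had Hells signals of 34.1 and 27.2, below the offset used in background correction. The sizes of both differences, and the fold, are therefore not exact. Uhrf1, which recruits Dnmt1 to newly copied DNA, had 1.06 (SE 0.25) in KO and 1.15 (SE 0.41) in WT, and Dnmt1 itself had 1.07 (SE 0.59) and 1.52 (SE 0.51). Uhrf1's other probe had 1.70 in KO and -0.09 in WT. The CAF-1 subunits Chaf1a and Chaf1b had 0.80 and 0.20 in KO and 2.37 and 0.79 in WT. Chaf1b's other probes had 0.15 and -0.06 in KO and 0.32 and 0.14 in WT. Of the S phase entry genes, Slbp, which binds histone mRNA, had 0.58 and 0.61, and Ccne1, cyclin E1, had 0.46 and -0.17 by its brighter probe and 3.22 and 1.42 by the other.

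The neighbouring steps of the cell cycle were read from lists of genes outside the members. Of 48 measured further replication and G1/S genes, 40 were higher in MPPs in KO and 40 in WT, with medians of 0.73 and 0.87 and 0 passing the adjusted test in either. Ticrr, which helps to fire origins, was not well above background in any KO HSC, and Dck, deoxycytidine kinase, had 1.98 (SE 0.39) in WT. Of 19 measured G2 and M phase genes, 18 were higher in MPPs in each genotype, with medians of 1.37 in KO and 0.92 in WT, and Kif11, a spindle motor, had 1.68 (SE 0.33) in KO and 2.17 (SE 0.34) in WT. The 12 G1 cyclins, kinases and inhibitors had medians of 0.40 in KO and -0.21 in WT. Among them Cdkn1c, the p57 inhibitor associated with HSC quiescence, read 10.58, 11.41 and 10.79 in KO MPPs, against 13.51, 14.07 and 14.08 in KO HSCs, and fell by 2.96 (SE 0.32, adjusted p = 0.0217). In WT it read 9.39, 10.38 and 10.27 in MPPs, against 11.51, 11.72 and 12.75 in HSCs, a difference of -1.98 (SE 0.45, adjusted p = 0.197). Cdk6 had 2.14 (SE 0.54) in KO and 2.60 (SE 0.56) in WT, where HSC 2 was not well above background. The inhibitor Cdkn2c had 2.72 (SE 0.43) in KO, where HSC 2 was not well above background, and it was not well above background in any WT HSC.

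**Figure D4:**
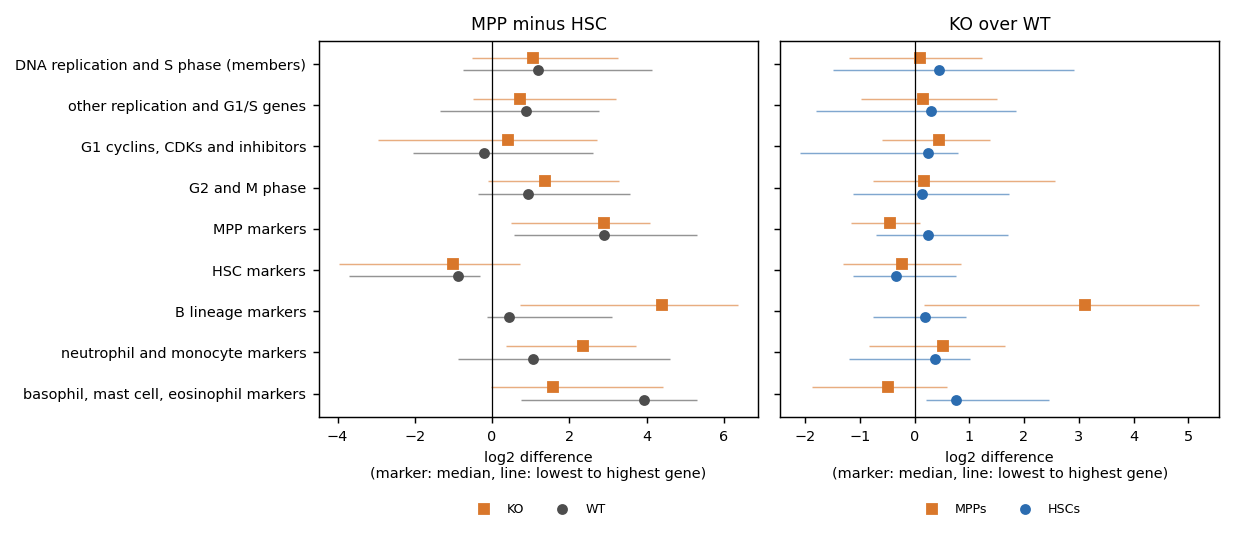
Median log2 difference (marker) and range from the lowest to the highest gene (line) of each gene list, for MPPs minus HSCs in KO and WT (left) and for KO over WT in MPPs and HSCs (right). The members' medians are 1.07 and 1.18 on the left and 0.10 and 0.44 on the right, and B lineage markers have 3.11 for KO over WT in MPPs.

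No difference between KO and WT passed the test for any replication gene, and the ratios varied widely between HSC arrays. In MPPs, 27 of 50 members were above 0 (50.7% of all features) with a median of 0.10, and in HSCs 36 of 50 were (50.2%) with a median of 0.44, while the median of all features was at most 0.01. All 3 arrays were above 0 for 11 members in MPPs and 11 in HSCs (14.8% and 13.3% of all features), and below 0 for 5 and 4 (14.2% and 13.6%). At an unadjusted p under 0.05, limma gave 4 higher and 0 lower in MPPs (2.49% and 2.62% of all features), and 7 higher and 1 lower in HSCs (3.95% and 3.45%). The 7 became 2 without HSC 3 and 11 without HSC 1, and the 4 became 1 without MPP 1 or MPP 3 and 2 without MPP 2. Shares of all features were not counted with an array left out. After adjustment 0 members and 0 of all features passed in either population, with a smallest adjusted p among members of 0.965 in MPPs and 0.652 in HSCs. Of the 42 members well above background everywhere, 23 were above 0 in MPPs (median 0.12) and 28 in HSCs (median 0.19).

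The arrays of a population differed in this measure. The members' median log2 KO over WT was 0.25, 0.06 and 0.09 on MPP arrays 1 to 3 and -0.11, 0.12 and 0.77 on HSC arrays 1 to 3. Members above 0 numbered 37, 26 and 27 of 50 on the MPP arrays and 22, 29 and 38 on the HSC arrays. HSC 3 was the highest of the HSC arrays, and without it the HSC median was 0.15, with 26 members above 0. The KO HSC 3 sample also had basophil, mast cell and eosinophil markers summing to 153110, against 1242 and 6852 in KO HSC 1 and KO HSC 2, and WT HSC 3 had 10685, against 675 and 728 in WT HSC 1 and WT HSC 2. The part of these markers in the replication genes' ratios was not tested. In WT HSCs the samples were also spread, since WT HSC 1 was the highest of the 3 for 27 of 50 members (27.2% of all features). A member's SD over 3 arrays had a median of 0.67 for the ratio in MPPs and 1.16 in HSCs, against 0.52 and 0.64 over all features.

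**Figure D5:**
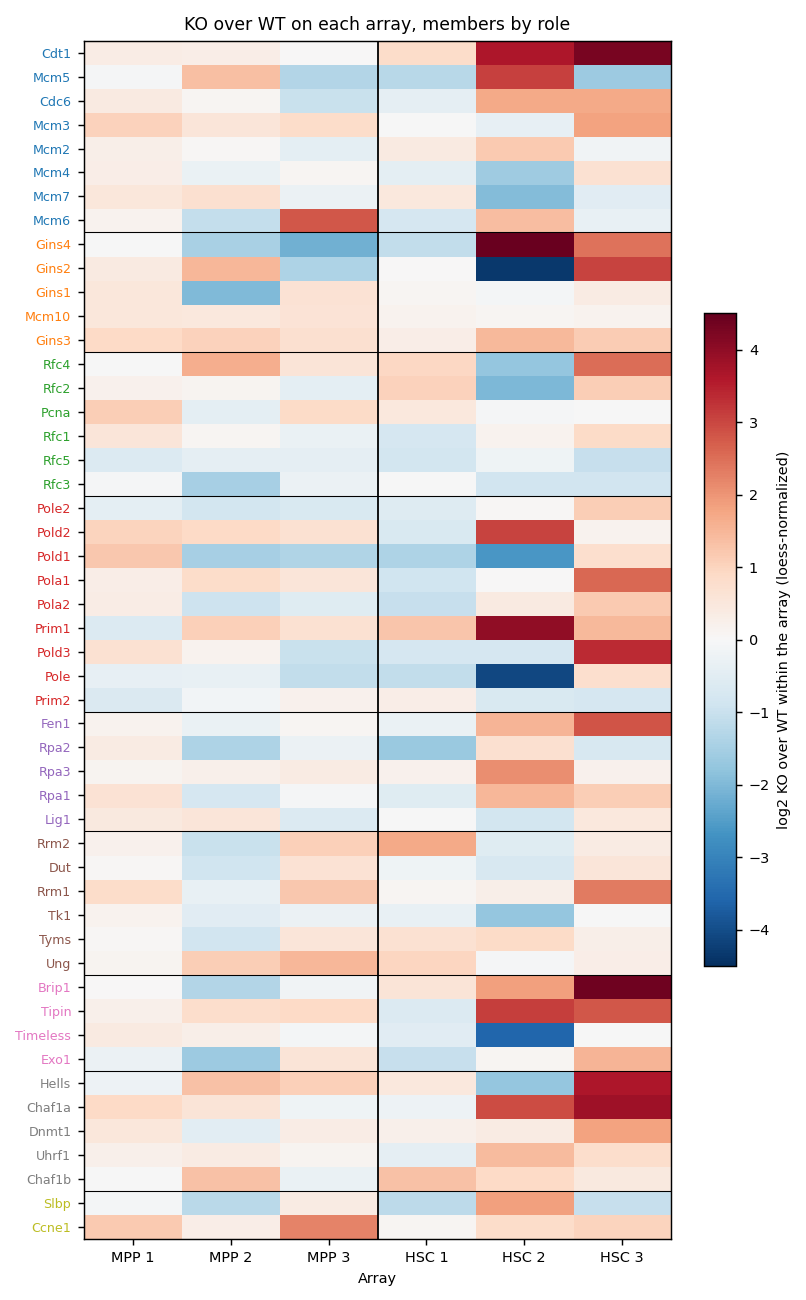
Log2 KO over WT of each of the 50 members (rows, ordered and coloured by role) on the 3 MPP and the 3 HSC arrays (columns). Red marks a higher signal in KO and blue a lower one. Colours are mostly pale on the MPP arrays, and the strongest ones of both signs lie on HSC 2 (-4.34 for Gins2 and 4.43 for Gins4) and HSC 3 (4.36 for Brip1), where the WT signals of Gins4 and Brip1 were not well above background, so those ratios are not exact.

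Gins3 was above 0 on every array of both populations, with log2 KO over WT of 0.91, 1.04 and 0.71 on the MPP arrays and 0.29, 1.45 and 1.15 on the HSC arrays. The mean effect over both populations was 0.93 (SE 0.20, adjusted p = 0.567). Gins3 was the brightest member after Ung, and its mean effect ran from 0.77 to 2.00 under the other processing settings and left-out arrays. No dye exchange was made. Rfc5 was below 0 on every array, with -0.60, -0.42 and -0.40 in MPPs and -0.82, -0.18 and -1.03 in HSCs, and had a mean effect of -0.57 (SE 0.18, adjusted p = 0.571). Its other probe had a mean effect of -0.08 (SE 0.25), with 0.11 in MPPs and -0.26 in HSCs. The loader subunit Rfc3 was also below 0 on all 6, with -0.05, -1.48 and -0.26 in MPPs and -0.03, -0.87 and -0.86 in HSCs (mean effect -0.59, SE 0.25). Ccne1 was above 0 on all 6, with 1.18, 0.30 and 2.24 in MPPs and 0.07, 0.83 and 1.01 in HSCs (mean effect 0.94, SE 0.29), while its other probe had a mean effect of -1.67 (SE 0.75). In the mean effect, 32 of 50 members were above 0 (50% of all features), 6 were higher and 1 lower at an unadjusted p under 0.05 (4.49% and 3.88%), and 5 were above and 2 below 0 on all 6 arrays (3.26% and 3.3%).

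Cdt1 and Prim1 had the smallest p in HSCs. Cdt1 had log2 KO over WT of 0.32, 0.31 and 0.00 on the MPP arrays, against 0.83, 3.63 and 4.29 on the HSC arrays. The HSC values were all above the MPP values, with an effect of 0.21 in MPPs and 2.91 (SE 0.63, adjusted p = 0.652) in HSCs. Prim1 had -0.63, 1.07 and 0.70 in MPPs, against 1.24, 3.98 and 1.46 in HSCs, with an HSC effect of 2.23 (SE 0.61, adjusted p = 0.664). WT HSC 3 for Cdt1 and WT HSC 2 for Prim1 were not well above background, so the ratios on those arrays are not exact. Among those lower in KO HSCs, Timeless had -0.50, -3.58 and -0.02 (effect -1.37, SE 0.66) and Tk1 -0.34, -1.75 and 0.00, so HSC 2 carried most of each. In MPPs, Ung had 0.14, 1.09 and 1.50 (effect 0.91, SE 0.35) and Pole2 -0.46, -0.81 and -0.68 (effect -0.65, SE 0.35), each with 1 sign on all 3 arrays. Ung, the brightest member, had effects of 0.43 to 2.20 under the other processing settings and left-out arrays.

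The KO effect in MPPs minus the KO effect in HSCs was tested for each member. It was above 0 for 22 of 50 (50.8% of all features) with a median of -0.08, and 0 members and 0 of all features passed after adjustment in limma. At an unadjusted p under 0.05, 0 members were above and 2 below 0 (1.69% and 2.35% of all features). These were Cdt1, with a difference of -2.70 (SE 0.89), and Brip1, with -2.76 (SE 0.98), both at an adjusted p of 0.964. Brip1 had ratios of 0.01, -1.32 and -0.18 in MPPs, against 0.59, 1.84 and 4.36 in HSCs, so the 2 sets did not overlap, although WT HSC 3 was not well above background. The arrays of the populations were separated downward for 3 members and upward for 1 (4.29% and 3.81% of all features). The upward one was Mcm10, with 0.49, 0.49 and 0.62 in MPPs and 0.15, 0.09 and 0.16 in HSCs (difference 0.40, SE 0.29). For Mcm10 no WT HSC was well above background, nor were KO HSC 2 and KO HSC 3. It passed the filter only through MPP samples, so its HSC ratios are not exact and its separation was partly built in.

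Genes that control S phase from outside the list were set beside these values. Of 48 further replication and G1/S genes, 31 were above 0 in KO over WT in MPPs and 29 in HSCs, with medians of 0.16 and 0.30 and 0 passing after adjustment. Rb1, which holds E2F factors in check, had a mean effect of -1.19 (SE 0.44, adjusted p = 0.585), and Cdk2, the partner of cyclin E, had -0.96 in MPPs and 1.73 (SE 0.62, adjusted p = 0.664) in HSCs. Cdkn2a, the gene of the Ink4a-Arf locus, had 1.18 (SE 0.60, adjusted p = 0.965) in MPPs and -0.95 (SE 0.60, adjusted p = 0.719) in HSCs, where KO HSC 2 and WT HSC 1 were not well above background. B lineage markers had a median KO over WT of 3.11 in MPPs, with 11 of 11 above 0, and 0.19 in HSCs, with 8 of 11. Their part in the ratios of the replication genes was not tested.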

How the data were processed

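Scanned intensity per spot and local background in both channels were deposited by the authors, read with Agilent Feature Extraction 10.7.3.1 per the file headers (8.5.1.1 per the submitters' processing notes). The deposited log10 ratio of processed red over green, repeated in the series table, served as a check. Other deposited columns were marks of 0 or 1 for spots above background, saturated or faulty. Here, intensities were background-corrected (normexp, offset 50, limma 3.58.1 in R 4.3.3) and log2 KO over WT was loess-normalized within each array. Levels were quantile-normalized within each dye. The brightest probe stood for a gene. Comparisons used lmFit and eBayes on all 6 arrays with Benjamini-Hochberg adjustment over 29134 features and a threshold of 0.05. Current RefSeq symbols named 48.9% of probes and file names the rest. These p-values measure only the spread between these samples. The genes with the smallest p and arrays of 1 sign, up to 3 per direction and comparison, are shown in full. Members and lists were chosen with earlier results of these data known. Another background correction, scaling, filter, probe rule, model, slide row and left-out arrays were tried.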

Additional observations from a re-analysis of the deposited data

How the results depend on the processing

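Of 411 recomputed values of single genes, 407 kept their direction and side of the threshold. None of these genes passed in the main setting, so the side kept was that of not passing. They were picked from these data for small p and arrays of 1 sign or separated groups, which favours a kept direction. The 3 that crossed the threshold did so with median scaling in place of loess or quantile normalization. They were Gins3 in the mean effect (2.00, adjusted p = 0.0348), Hells in WT (3.33, adjusted p = 0.0460) and Pold2 in KO (2.09, adjusted p = 0.0372). Counting all members, 2 passed in the mean effect with that scaling, so Gins3 was not the only one. Ccne1 turned to -0.37 in the mean effect when its probes were averaged, since they disagree. Median scaling put the median KO over WT of all features at 0.29 in HSCs, 0.26 in MPPs and 0.28 in the mean. These medians were at most 0.01 in the main setting and at most 0.06 with Agilent's processed signals. Median scaling also put the members' median in MPPs at 0.49 and called 303 features in the mean effect (299 higher, 4 lower). Leaving out 1 array gave members' medians of 0.15 to 0.56 in HSCs, -0.010 (without MPP 1) to 0.20 in MPPs, and -0.41 (without HSC 1) to 0.019 (without HSC 3) for the difference of effects. For MPPs against HSCs these were 0.92 to 1.27 in KO and 0.85 to 1.32 in WT. Features called in KO MPPs against KO HSCs numbered 37 with the replicate number as a block, 16 with slide row as a term, 33 over probes with a RefSeq accession alone (a setting chosen after seeing the data) and 58 to 155 without 1 array. In WT they numbered 0 with the block, 0 with slide row, 31 with RefSeq accessions, 51 with no filter on dim probes and 0 to 121 without 1 array, with 0 left without MPP 3, 2 without HSC 1 and 7 without MPP 1. Same-numbered samples' deviations from the group means in level correlated at 0.0028 to 0.16, and different-numbered ones at -0.17 to 0.080. Whether replicate numbers pair the samples cannot be settled from these values. With the replicate number as a block, 0 features passed for the difference of effects. Members higher at an unadjusted p under 0.05 numbered 14 in HSCs and 16 in the mean effect (KO over WT) with median scaling, 11 in the mean effect without HSC 1, and 4 in HSCs and 1 in MPPs with a trended, robust fit. The share of all features at that p was not counted in these settings. With median scaling the median of all features also moved up, so the 14 and 16 cannot be read as particular to members. The cause of these shifts was not tested.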
